A study of Mus musculus with 4 samples.

Results

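TRIM proteins are a family named for the tripartite motif, in which a RING finger, one or more B-box zinc fingers and a coiled coil stand in a row. The RING finger makes most of them E3 ubiquitin ligases, which pass ubiquitin from a carrier enzyme to a chosen target, and the C-terminal domain, often a SPRY domain, picks that target. In macrophages many TRIM genes are induced by interferon and act on viral sensing or on the signals downstream of it, while other members work in chromatin, on microtubules, at membranes or in muscle. The TRIM genes described here were chosen by name, as the symbols of the count table made of Trim and a number, and they numbered 45 of 17194 symbols. All 45 passed the filter on low counts, among 15651 genes that did.

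The cells were primary mouse macrophages grown from bone marrow. All 4 libraries came from cells exposed to RANKL, the cytokine that drives such precursors toward osteoclasts, and were collected on day 2. Of these, 2 were labelled siControl and 2 siHells, for an siRNA against Hells, a remodeller of the SNF2 family that helps to maintain DNA methylation. No mouse strain, sex, age or siRNA sequence, and no number of animals or cultures, is given in the sources used here, so the p-values reflect only how far these samples scatter, and that scatter may be technical. Polyadenylated RNA was measured, at total counts between 48873635 and 55642819 per library.

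The siRNA target was lower in both siHells libraries. Hells had 1613 and 1501 reads in siControl and 823 and 785 in siHells. In CPM, reads scaled to the library size with TMM factors, its mean was 29.7 ± 0.459 against 14.9 ± 0.390 (SD, n = 2 each). The log2 fold change, siHells over siControl as everywhere below, was -0.99, with an SE of 0.0684 and an adjusted p of 5.96e-09. All such p-values come from the quasi-likelihood test of edgeR and were adjusted by Benjamini-Hochberg across the genes tested. Markers of macrophages and of osteoclasts were present in every library. The summed level of 8 macrophage markers was 15590 and 15730 CPM in siControl and 25600 and 24830 CPM in siHells, with 7 higher and 1 lower. That of 10 osteoclast markers was 8662 and 8726 against 1436 and 1397 CPM, with all 10 lower. Stromal markers also moved, 7 higher and 1 lower of 8 tested, at 1002 and 1026 against 1804 and 1775 CPM. Megakaryocyte markers, 3 of 6 higher and 1 lower, summed to 72.4 and 70.3 CPM in siControl and 173.7 and 175 CPM in siHells. Most of that sum was Pf4, with means of 47.9 against 155.4 CPM, while Vwf fell from 19.4 to 8.97 CPM. Dendritic cell markers, 2 of 5 higher and 2 lower, summed to 63.1 and 65.0 against 14.3 and 11.9 CPM. Neutrophil markers, 1 of 8 higher and 5 lower, went from 482 and 490.0 to 411 and 388 CPM. Of T and NK cell markers 2 of 3 were lower and of B cell markers 1 of 2 was higher, each list at or under 11.1 CPM in every library. The part of these cell types in the results below was not tested. None of 9 erythroid markers was in the table. In bulk RNA, fewer cells of a type and less RNA per cell cannot be told apart.

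Of the 45 TRIM genes, 22 were higher and 8 lower in siHells at an adjusted p under 0.05, together 66.7% of them. Over all genes tested, 58.5% were called, 29.0% higher and 29.5% lower. The higher share among TRIM genes was thus 48.9% and the lower share 17.8%. A called change of at least 1.5-fold was found in 10 of the 45 members, 8 higher and 2 lower. Among the 15651 genes tested it was found in 3900 (24.9%), 2033 higher and 1867 lower. The share among TRIM genes was thus no larger than that among all genes. The 2 groups of libraries did not overlap in 37 of the 45 genes, close to the 78.5% of all genes. The median log2 fold change was 0.19 for the TRIM genes and -0.00 for all genes. Summed over the family, TRIM transcripts made up 1679 and 1681 CPM in siControl and 1947 and 1917 CPM in siHells.

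**Figure D1:**
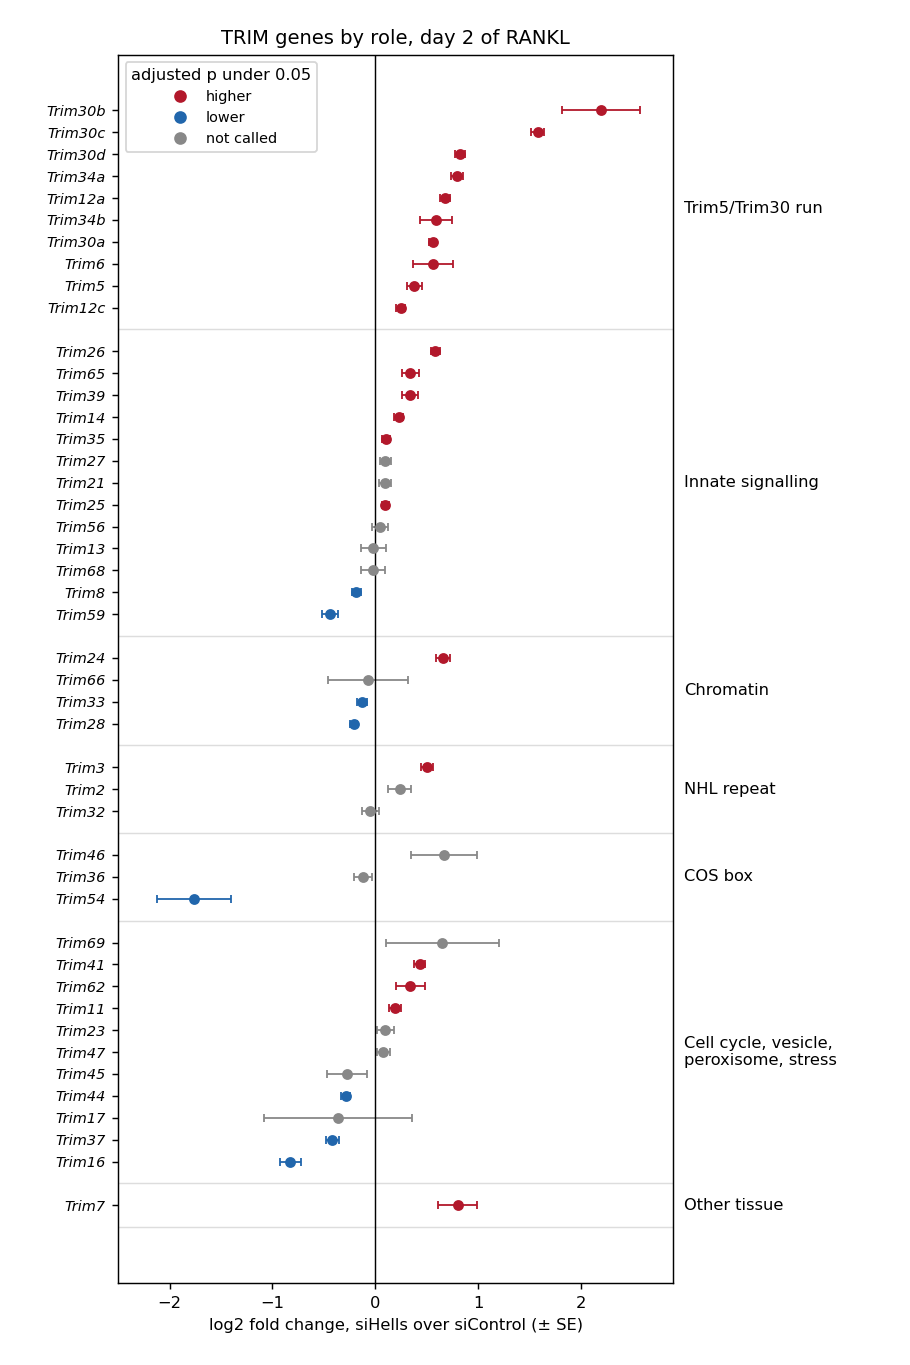
Log2 fold change of each of the 45 TRIM genes (points, siHells over siControl, bars ± SE), grouped by role and coloured by the call at an adjusted p under 0.05. All 10 genes of the Trim5/Trim30 run lie to the right of 0. The other groups spread to both sides, except that of Trim7, which holds 1 gene. Genes outside the run range from -1.76 for Trim54 to 0.80 for Trim7.

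Of the 22 higher genes, 10 lie in a single run on chromosome 7. This run holds the rodent relatives of TRIM5, the factor that blocks retroviral capsids in primates, and of TRIM34 and TRIM6, along with the rodent-specific Trim30 genes. All 10 members in the table rose: Trim6, Trim34a, Trim5, Trim12a, Trim34b, Trim12c, Trim30b, Trim30c, Trim30a and Trim30d, in chromosome order. They lie side by side over 289.1 kb, at chr7:104218795-104507853 of GRCm38. Their median log2 fold change was 0.63, with a range from 0.25 to 2.19. Their summed level was 379 and 384 CPM in siControl and 581 and 595 CPM in siHells. A called rise of at least 1.5-fold was found in 6 of the 10. Outside the run, 12 of the other 35 TRIM genes were higher and 8 lower, or 34.3% and 22.9%, with a median of 0.10. Of these 35, 2 higher and 2 lower genes reached a called 1.5-fold change. All 10 genes of the run were also called higher when libraries were scaled by DESeq2 size factors, by upper quartiles or by their totals. With no filter on low counts, or at an adjusted p of 0.01, 9 of the 10 were called higher. Tested against a 1.5-fold change, 4 of the 10 were.

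Trim30c, a Trim30 gene with little described function, showed a rise that both libraries shared. It had 14.4 and 15.5 CPM in siControl and 44.8 and 44.5 CPM in siHells. Its groups were far apart, with a 2.99-fold difference (log2 fold change 1.58, SE 0.0642, adjusted p = 1.00e-11). Trim30b was the lowest of the run, at 0.346 and 0.220 CPM in siControl and 1.605 and 1.03 CPM in siHells, from 19, 11, 87 and 55 reads. The replicates of each group differed by more than 1.5-fold, yet the groups did not overlap and the log2 fold change was 2.19 (SE 0.383, adjusted p = 0.000153). Trim30b lies inside the predicted gene Gm38525, which was higher too, at 0.853 ± 0.132 against 2.45 ± 0.123 CPM (SD, n = 2 each). With both counted as 1 gene the log2 fold change was 1.72 (adjusted p = 2.94e-06).

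Trim30a, which is induced by Toll-like receptor signals and restrains NF-kB through the adaptors TAB2 and TAB3, was the most abundant member of the run. Its level was 168 and 171 CPM in siControl and 246 and 254 CPM in siHells, a 1.47-fold rise (log2 fold change 0.56, SE 0.0335, adjusted p = 1.10e-09). Trim30d, its neighbour, had 42.8 and 43.3 CPM against 73.9 and 78.2 CPM. In both genes the siHells libraries stood well above the siControl libraries, and Trim30d rose 1.77-fold (log2 fold change 0.82, adjusted p = 1.02e-09). Of the distinct 50-base stretches of Trim30d transcripts, 6.39% also occurred in Trim30a. Summed as 1 gene they rose 1.53-fold, with means of 212.6 ± 2.16 CPM in siControl and 326 ± 8.24 CPM in siHells.

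Trim34a and Trim34b, the mouse counterparts of the interferon-responsive TRIM34, are close copies. Trim34b shared 56.8% of its 50-base stretches with Trim34a, and Trim34a shared 39.8% of its own with Trim34b and 20.2% with the opposite-strand Gm47248. Their separate values are therefore uncertain. Trim34a had 24.5 and 23.6 CPM in siControl and 40.5 and 43.1 CPM in siHells, a 1.74-fold rise (log2 fold change 0.80, SE 0.0605, adjusted p = 1.90e-08). Trim34b had 2.66 and 2.62 CPM against 4.08 and 3.88 CPM and rose 1.51-fold (adjusted p = 0.00447). Neither pair of groups overlapped, and the sum of both rose 1.71-fold (log2 fold change 0.78, adjusted p = 1.33e-08).

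Trim5, Trim12a and Trim12c form the mouse TRIM5 branch. Trim12a went from 39.1 CPM in both siControl libraries to 63.4 and 61.5 CPM in siHells (log2 fold change 0.68, SE 0.0492, adjusted p = 1.12e-08). Trim5, at 18.1 and 19.0 CPM against 25.1 and 23.1 CPM, rose 1.30-fold (adjusted p = 0.000354). Trim12c, which is known to cooperate with TRAF6 in interferon signalling, went from 65.4 and 66.7 CPM to 77.2 and 79.6 CPM, a 1.19-fold rise (adjusted p = 0.000175). Both changes were small, but the siHells libraries lay above the siControl libraries each time. Trim5 shared 23.5% of its 50-base stretches with Trim12c and 7.87% with Trim12a. Added together, the 3 genes had 124 ± 1.57 CPM in siControl and 165 ± 1.03 CPM in siHells, a 1.33-fold rise with an adjusted p of 6.81e-08.

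Trim6, which builds unanchored ubiquitin chains that activate the kinase IKK-epsilon, had the least stable call of the run. It stood at 3.66 and 3.12 CPM in siControl and at 4.003 and 6.02 CPM in siHells, where a single library was high (log2 fold change 0.56, SE 0.193, adjusted p = 0.0248). Without siHells replicate 2 the log2 fold change was 0.24 (adjusted p = 0.316), without siControl replicate 1 it was 0.68 (adjusted p = 0.0644) and without siControl replicate 2 it was 0.46 (adjusted p = 0.164). With no filter on low counts the adjusted p was 0.0560.

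**Figure D2:**
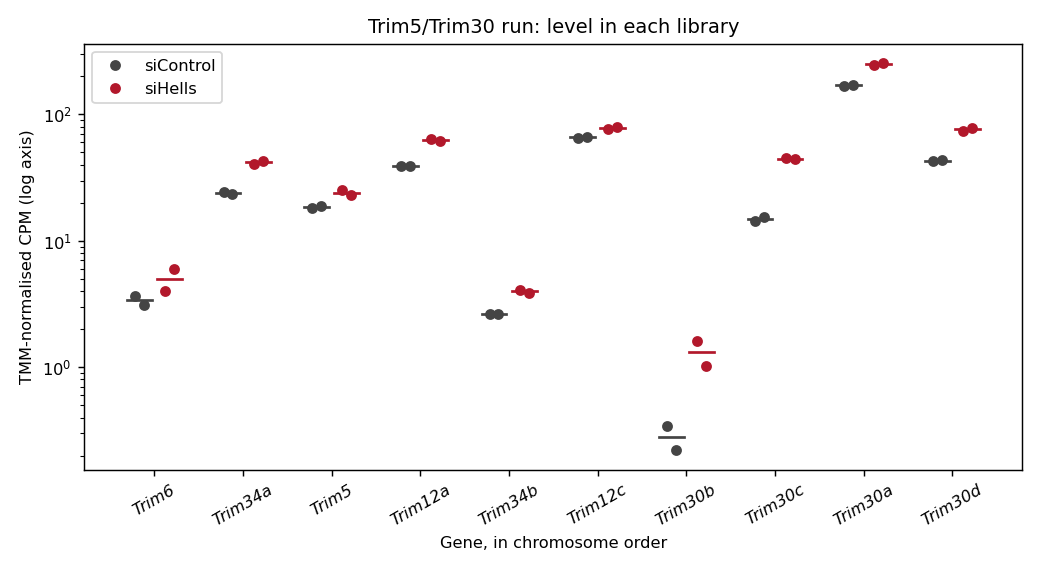
Level of the 10 genes of the run in each library, in TMM-normalised CPM on a log axis, with siControl in grey, siHells in red and a bar at each group mean. Both siHells points lie above both siControl points in all 10 genes, from 4.003 and 6.02 against 3.66 and 3.12 CPM in Trim6 to 246 and 254 against 168 and 171 CPM in Trim30a.

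The promoters of the run show which of its genes carry the letters of an interferon-stimulated response element, the site that IRF and STAT complexes bind. RefSeq windows of 300 bases (GRCm38.p6, 250 before to 50 after the start site) were found for 35 of the 45 TRIM genes and for all 10 of the run. They were searched on both strands for GAAA, any 2 bases and GAAA, and for a longer form that adds a final C, so that a match to the second is also a match to the first. The longer form was found in 6 of the 10 genes of the run and in 7 of the 35 TRIM genes (20.0%), against 1.12% of 11259 tested genes with a window. The shorter form was found in 9 of 35 TRIM genes (25.7%) against 450 of the 11259 tested genes. The stretches below run 5′ to 3′ on the gene's strand, with the longer form in capitals, where it reads GTTTC, any 2 bases and TTTC. For Trim30a, Trim30d, Trim5 and Trim12c they are the 60 bases up to the start site of the window. For Trim34a and Trim12a they are the 30 bases around a match that begins 9 bases past that site. Trim30a has another window, chr7:104446076-104446375, which is not printed. There the longer form begins 1 base past the start site. The start site of a window can lie inside the longer RefSeq span of its gene, as in Trim34a and Trim12a. The spans of Trim5 and Trim30c reach chr7:104288254 and chr7:104400852, so all their printed bases lie within them. Trim30c and Trim30b, where no match was found in the window, are shown for comparison.
Trim30a (chr7:104465194-104465253, minus strand): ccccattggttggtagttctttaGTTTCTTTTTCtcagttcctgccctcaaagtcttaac
Trim30d (chr7:104507850-104507909, minus strand): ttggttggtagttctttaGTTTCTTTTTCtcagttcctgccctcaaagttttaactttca
Trim5 (chr7:104288107-104288166, minus strand): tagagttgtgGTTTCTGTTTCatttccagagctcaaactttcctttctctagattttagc
Trim12c (chr7:104353350-104353409, minus strand): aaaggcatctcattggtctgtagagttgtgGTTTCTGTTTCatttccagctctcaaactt
Trim12a (chr7:104315467-104315496, minus strand): tagagttgtgGTTTCTGTTTCatttccaga
Trim34a (chr7:104244456-104244485, plus strand): ctggtttggaGTTTCAGTTTCttttctctg
Trim30c (chr7:104400779-104400838, minus strand): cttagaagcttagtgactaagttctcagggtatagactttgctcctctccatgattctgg
Trim30b (chr7:104358647-104358706, minus strand): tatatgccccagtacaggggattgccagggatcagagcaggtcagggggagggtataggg

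The stretches fall into 2 families of copies and a singleton. Within the letters printed, Trim30a and Trim30d share a run of 49 bases that includes the motif, and Trim5, Trim12a and Trim12c share one of 29. Both runs reach the edge of a printed stretch, so they are lower limits. Trim34a has the motif in other surroundings. No match was found in the windows of Trim30c, Trim30b, Trim34b and Trim6, and the members with the 2 highest fold changes of the run, Trim30b and Trim30c, are among these. How presence of the letters relates to the size of the rise was not tested. Outside it, the shorter form was found in Trim26 and Trim21 and the longer form in Trim2. In Trim26 it lies upstream of the start site, at chr17:36836974-36837003, plus strand, as ggccgcttccgaTTTCACTTTCcttttctc. A match is a description of the letters and not of a bound site.

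Of 21 tested genes of the type I interferon response, 15 were higher and 4 lower, or 71.4% and 19.0% against 29.0% and 29.5% of all genes. Their summed level was 1363 and 1369 CPM in siControl and 1957 and 1937 CPM in siHells. Irf7 rose 2.08-fold, Oasl2 2.00-fold and Stat2 1.86-fold. The 4 lower genes were Cxcl10, which fell 4.45-fold, Ifit2, Isg15 and Ifit3. Their log2 fold changes were -2.15, -0.38, -0.20 and -0.14. Ifit1 and Oasl1 did not pass the test (log2 fold change -0.02 and 0.19). Macrophage markers rose over the same libraries and osteoclast markers fell. The part of either in the change of the TRIM genes was not tested.

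The nearest tested genes outside the run, none closer than 313.3 kb, did not share a direction. Across gaps this wide, where the rise ends cannot be told. Within its limits 3 other tested genes, all predicted, were higher: Gm15133, Gm38525 and Gm16464 (log2 fold change 1.28, 1.51 and 0.45). The first overlaps Trim12a, the second contains Trim30b and the third lies within the span of Trim30d, so they are not independent of the members. On the side of Trim6, the nearest tested genes were the TRIM genes Trim68 and Trim21, at 1531.5 and 1653.3 kb, with log2 fold changes of -0.02 and 0.10 (adjusted p = 0.889 and 0.189). Beyond them Rrm1 was lower and Stim1 and Rhog were higher. On the side of Trim30d, at 313.3 to 1046.5 kb, Gm4887, Gm5900 and Fam160a2 were not called, Cavin3 was higher and Smpd1 lower. Gm4887 and Gm5900 were scarce, with means of 0.663 and 0.304 CPM in siControl.

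**Figure D3:**
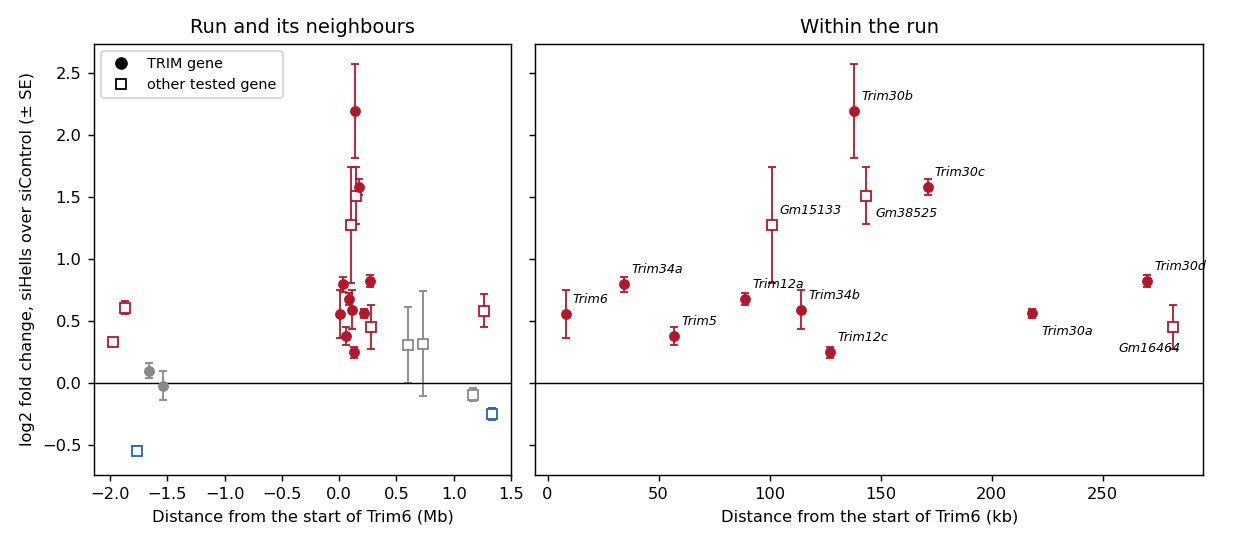
Log2 fold change (± SE) against distance from the start of Trim6, in Mb for the run with the 5 nearest tested genes on each side (left) and in kb within the run (right). Circles are TRIM genes, open squares other tested genes, and colours give the call (red higher, blue lower, grey not called). Inside the run every point lies above 0, and outside it points lie on both sides.

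Of 13 tested TRIM genes of innate sensing and cytokine signalling outside the run, 6 were higher and 2 lower. That is 46.2% and 15.4%, against 29.0% and 29.5% of all genes. The count of higher genes was 4 with upper-quartile scaling, with library totals or at an adjusted p of 0.01. The share called was 61.5%, near the 58.5% of all genes, and the median log2 fold change was 0.10. None reached a called 1.5-fold change, which 24.9% of all genes did. Trim26, which limits interferon-beta induction by acting on IRF3, came closest. Its level was 52.7 and 53.5 CPM in siControl and 79.2 and 79.8 CPM in siHells (just under the 1.5-fold limit, log2 fold change 0.58, SE 0.0443, adjusted p = 1.94e-08). Trim14, which lacks a RING finger and serves as an adaptor for MAVS, had 68.9 and 68.7 CPM against 81.0 and 80.2 CPM. The 4 libraries formed 2 tight pairs, and Trim14 rose 1.17-fold (adjusted p = 0.000257). Of its exon bases, 31.3% are also exon of Nans on the opposite strand, which went the other way (log2 fold change -0.25), and without strand such reads cannot be told apart.

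Trim59, a membrane-anchored member, fell from 17.7 and 17.8 CPM to 13.2 and 12.8 CPM. Its groups were clearly apart, at 1.36-fold (log2 fold change -0.44, SE 0.0782, adjusted p = 0.000165). Trim8, which promotes NF-kB signalling through TAK1, fell by 0.18 on the log2 scale. Trim39 and Trim65, the latter a ligase for the RNA sensor MDA5, both rose by a log2 fold change of 0.34.

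Trim25, which attaches ubiquitin chains to the RNA sensor RIG-I, had 219 and 223 CPM in siControl and 242 and 231 CPM in siHells. The libraries did not overlap, but the difference was 1.07-fold (log2 fold change 0.10, SE 0.0345, adjusted p = 0.0263). The call did not hold without siControl replicate 1 or siHells replicate 1 (adjusted p = 0.222 and 0.117), nor with upper-quartile scaling or library totals (adjusted p = 0.124 and 0.586). Trim35, at a log2 fold change of 0.11, was lost under the same scalings (adjusted p = 0.135 and 0.499), with the DESeq2 Wald test (0.0802) and without siControl replicate 1, siControl replicate 2 or siHells replicate 2 (adjusted p = 0.168, 0.123 and 0.110). Trim21, the cytosolic antibody receptor, had 27.7 and 27.1 CPM against 29.8 and 28.7 CPM (adjusted p = 0.189). Trim27, Trim56, Trim68 and Trim13 also did not pass the test, with log2 fold changes from -0.02 to 0.10. Trim13 shares its span with the noncoding Dleu2, which was higher (log2 fold change 1.01).

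Chromatin members split. Trim24, a coregulator of the retinoic acid receptor and a ligase for p53, had 18.03 and 18.7 CPM in siControl and 30.3 and 27.6 CPM in siHells. Both siHells libraries were higher and the rise was 1.58-fold (log2 fold change 0.66, SE 0.0711, adjusted p = 1.11e-06). Trim28, the corepressor that KRAB zinc finger proteins bring to their targets, fell from 152 and 154 CPM to 132 CPM in both siHells libraries. That drop was small beside the level but larger than the spread (1.16-fold, log2 fold change -0.21, SE 0.0351, adjusted p = 0.000110). Trim33, a regulator of SMAD4, went from 54.2 and 52.6 CPM to 48.8 and 49.1 CPM (log2 fold change -0.13, adjusted p = 0.0372), a call that was lost when any 1 library was left out (adjusted p from 0.0612 to 0.190) and with the DESeq2 Wald test (0.113). Trim66, a relative of Trim28 known from the testis, had 21 to 23 reads per library and a log2 fold change of -0.07 (adjusted p = 0.889).

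Among members with NHL repeats, which bind RNA or partner proteins, 1 of 3 was called (33.3%, against 58.5% of all genes). Trim3, found on endosomes, rose from 31.3 and 33.4 CPM to 47.3 and 44.0 CPM (1.41-fold, log2 fold change 0.50, SE 0.0589, adjusted p = 2.92e-06). Trim2, which targets neurofilament light chain in neurons, had 7.82 and 9.23 CPM against 10.6 and 9.43 CPM. The lower siHells library came near the higher siControl library (adjusted p = 0.0809), and the adjusted p was 0.0283 without siControl replicate 2 and 0.0304 without siHells replicate 2. Trim32, a ligase mutated in a limb-girdle muscular dystrophy, had 18.1 and 16.6 CPM against 16.0 and 17.6 CPM, and its groups overlapped.

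Members with a COS box, which binds microtubules, were scarce except for Trim36. Trim54, known as MuRF3 in striated muscle, fell from 49 and 54 reads to 16 and 15 reads, or from 0.891 and 1.08 CPM to 0.295 and 0.280 CPM. The groups were far apart for so low a gene, at 3.39-fold (log2 fold change -1.76, SE 0.357, adjusted p = 0.000580), and 26.6% of its exon bases are shared with the opposite-strand Gm15469. Trim46, which organises axonal microtubules, had 26 and 37 reads against 54 and 49 (log2 fold change 0.67, adjusted p = 0.0851). Trim36 had 12.1 and 11.8 CPM against 10.9 and 11.2 CPM (adjusted p = 0.273).

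Members tied to the cell cycle, vesicles, peroxisomes and stress were split, 3 of 11 being higher and 3 lower, or 27.3% each way, near the 29.0% and 29.5% of all genes. The count of higher genes was 1 with library totals and without siControl replicate 2. Trim16, which lacks a RING finger and acts in the response to damaged lysosomes, fell most. It had 16.0 and 17.05 CPM in siControl and 8.23 and 10.4 CPM in siHells, 1.77-fold lower (log2 fold change -0.83, SE 0.104, adjusted p = 5.44e-06). Trim37, a ligase that stabilises the peroxisome import receptor PEX5 and restrains centrosome assembly, fell from 31.5 and 31.9 CPM to 24.8 and 22.7 CPM (1.33-fold, adjusted p = 5.10e-05). Trim44, which has no RING finger, fell from 105 and 109 CPM to 90.8 and 85.1 CPM (1.22-fold, adjusted p = 4.21e-05). These 3 genes had both siHells libraries below both siControl libraries.

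Trim41 rose from 54.2 and 53.4 CPM to 76.0 and 69.1 CPM (1.35-fold, log2 fold change 0.43, SE 0.0521, adjusted p = 3.70e-06). Trim11 rose by a log2 fold change of 0.19 (adjusted p = 0.0117), but the adjusted p was 0.0978 with library totals and 0.0873 without siControl replicate 2. Trim62 was called at an adjusted p of 0.0478, with 4.98 and 5.20 CPM against 7.23 and 5.65 CPM. Its call rested on siHells replicate 1, without which the log2 fold change was 0.15 (adjusted p = 0.450), and it was also lost without either siControl library, with each other test, with the replicate block, with no filter and with 2 of the 3 other scalings (adjusted p from 0.0513 to 0.168). Trim45, Trim47, Trim69 and Trim23 did not pass the test, with log2 fold changes of -0.28, 0.08, 0.65 and 0.10. Trim23, which carries an ARF GTPase domain, had a log2 fold change of 0.23 without siHells replicate 1 (adjusted p = 0.0103) and of -0.05 without siHells replicate 2 (adjusted p = 0.663). Trim7, the partner of glycogenin, was the sole tested member of the group used mainly in other tissues. Its reads rose from 89 and 99 to 178 and 159, or from 1.62 and 1.98 CPM to 3.28 and 2.96 CPM (1.74-fold, log2 fold change 0.80, SE 0.189, adjusted p = 0.00193).

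Trim17, known for promoting apoptosis in neurons, had the largest difference between replicates of the 45 genes, 3.22-fold between the siHells libraries. It had 963 and 797 reads in siControl and 1075 and 330 in siHells. Its log2 fold change of -0.36 (SE 0.720, adjusted p = 0.724) became -1.44 without siHells replicate 1 (adjusted p = 1.01e-14) and 0.25 without siHells replicate 2 (adjusted p = 0.0212). The histone gene H2aw lies within the span of Trim17, at chr11:58954685-58955192 inside chr11:58954671-58973075, and in GENCODE the histone shares 19.0% of the exon bases of Trim17. H2aw had 27 and 15 reads in siControl and 69 and 664 in siHells, so it was high in the library where Trim17 was low. Counted as 1 gene, they had 990 and 812 reads in siControl and 1144 and 994 in siHells. In CPM the sum was 18.01 and 16.2 against 21.1 and 18.5, which is 0.21 on the log2 scale (SE 0.0845, adjusted p = 0.0453). The summed counts held no low library of the kind seen for Trim17 alone, and the sign of the difference turned.

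**Figure D4:**
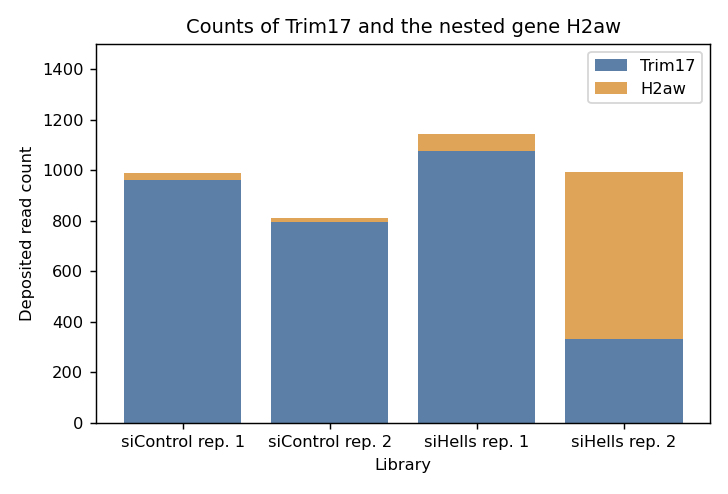
Deposited read counts of Trim17 (blue) and of the nested histone gene H2aw (orange), stacked for each library. In siHells replicate 2 most of the stack belongs to H2aw (664 of 994 reads), while the height of the stacks ranges from 812 to 1144 over the 4 libraries.

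Levels were compared between members per kb of exon in GENCODE M21, in which all 45 genes had a length. Trim30a, Trim25 and Trim28 were the 3 most abundant TRIM transcripts in both groups, in that order. Trim30a had 41.3 ± 0.445 CPM per kb in siControl and 60.8 ± 1.26 in siHells, Trim25 had 38.4 ± 0.559 and 41.1 ± 1.37, and Trim28 had 36.8 ± 0.317 and 31.9 ± 0.0112 (SD, n = 2 each). The SDs of these 3 genes did not overlap in either group. In siControl, Trim30a stood above 92.4% of the 14610 tested genes with an exon length. Trim30c moved from the 14th place in siControl, at 8.72 ± 0.452 CPM per kb, to the 4th in siHells, at 26.0 ± 0.147, and passed Trim8, whose level went from 27.8 ± 1.26 to 24.4 ± 0.208. At the low end, Trim66, Trim30b and Trim69 had under 0.2 CPM per kb in both groups. The place of Trim30b depends on its gene model, since its GENCODE exons add up to 7.53 kb while its whole RefSeq span is 3249 bases.

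**Figure D5:**
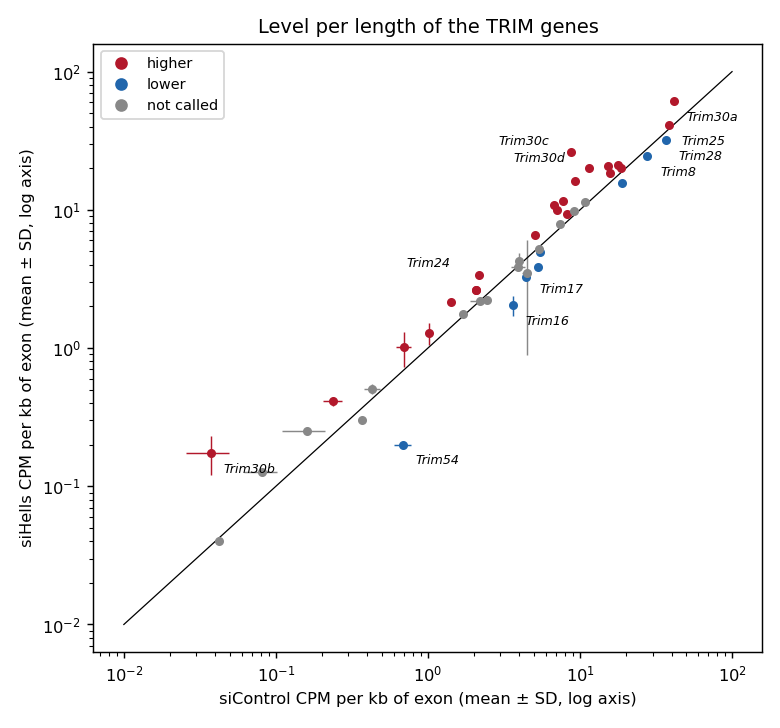
Level of each TRIM gene per kb of exon in siHells against siControl (mean ± SD of 2 libraries, log axes), coloured by the call, with a line at equal levels. Trim30a, Trim25 and Trim28 are at the top right, Trim30c lies furthest above the line among abundant genes, and the long vertical bar belongs to Trim17.

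Genes that work with TRIM proteins were read in the same fit. Of 57 tested, 27 were higher and 17 lower, or 47.4% and 29.8% against the 29.0% and 29.5% of all genes. TRIM-fold genes with other symbols were all called, 4 of 6 higher and 2 lower (66.7% and 33.3%), where 58.5% of all genes were called. Pml, the scaffold of PML nuclear bodies, rose 1.48-fold, from 87.3 to 129.6 CPM (adjusted p = 6.11e-09). Rnf135, which like Trim25 acts on RIG-I, rose by a log2 fold change of 0.45, and the low-level Bspry fell from 0.966 to 0.297 CPM. Mefv, the pyrin gene mutated in familial Mediterranean fever, fell by 0.25, while the microtubule-bound Mid1 and Mid2 rose by 0.58 and 0.80 on the log2 scale.

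In RNA and DNA sensing, 11 of 17 substrates and adaptors of TRIM ligases rose and 4 fell. That is 64.7% and 23.5%, against 29.0% and 29.5% of all genes. Irf7, the transcription factor that amplifies interferon production, rose from 86.7 to 180.1 CPM. It is also on the list of interferon response genes above. Ifih1, which encodes MDA5, rose from 53.5 to 84.5 CPM, and Ikbke from 101 to 145 CPM. Ddx58, which encodes RIG-I, rose by a log2 fold change of 0.28. Mavs and Traf6 fell by 0.13 and 0.14 on the log2 scale, and Irf3 did not pass the test (log2 fold change 0.04).

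Of ubiquitin donors and E2 enzymes, 4 of 14 were higher and 4 lower, or 28.6% each way, near the 29.0% and 29.5% of all genes. Ube2l6, the E2 enzyme for the ubiquitin-like ISG15, fell 3.36-fold, from 163.9 to 48.8 CPM (log2 fold change -1.75). Ubb, a polyubiquitin gene, rose by a log2 fold change of 0.31. Ube2n, the E2 that builds lysine-63 chains with TRIM ligases, fell by 0.14 on the log2 scale.

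In the silencing complex that Trim28 recruits, 4 of 14 genes were higher and 6 lower. That is 28.6% and 42.9%, against 29.0% and 29.5% of all genes. Atf7ip and the H3K9 methyltransferase Setdb1 rose by log2 fold changes of 0.35 and 0.24, while Chd3 and the HP1 genes Cbx5, Cbx1 and Cbx3 fell by 0.39, 0.32, 0.25 and 0.27. Among partners of Trim24 and Trim33, Rara, the retinoic acid receptor bound by Trim24, rose 2.24-fold, from 16.4 to 36.6 CPM. Smad4 rose by a log2 fold change of 0.42 and Trp53 fell by 0.34.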

How the data were processed

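The table the authors deposited gives raw read counts for 17194 gene symbols in 4 libraries, per the file headers. It holds no 0, so genes without reads in any 1 library were not analysed here. HISAT2 2.1.0, StringTie 2.1.3b, Trimmomatic 0.38, edgeR and FastQC are named, with mm10, per the submitters' processing notes. The labels' protocols name 2 library kits, so the strand setting is open. Genes were filtered with filterByExpr (minimum count 10), which removed 1543, scaled by TMM and tested with the edgeR quasi-likelihood test (edgeR 4.0.16, R 4.3.3, robust, group as the only term, 2 residual degrees of freedom), with Benjamini-Hochberg adjustment over 15651 genes and a threshold of 0.05. The SE is the log2 fold change divided by the root of F. The procedure was tested on simulated data. RefSeq GRCm38.p6 gave positions and promoters, GENCODE M21 exon lengths, overlaps and shared 50-base stretches. Members and gene lists were chosen with earlier results of these data known. Full values are given for members called with a change of at least 1.5-fold, the 3 with the smallest p per role and the 3 most abundant per length. Up to 3 partner genes per list follow the same order of p, and other partner genes were named after their values were seen. A partner gene that the rule names is not reported here. Protein sequences were not used here. Alternatives were 3 scalings, 2 filters, DESeq2 1.42.0, limma voom (limma 3.58.1), the legacy fit, a replicate block, each library left out, a threshold of 0.01 and a test against 1.5-fold. Summing nested or copied genes was added after the data were seen.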

Additional observations from a re-analysis of the deposited data

How the results depend on the processing

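Against a 1.5-fold change in place of 0, 4 TRIM genes were higher and 2 lower, 2 partner genes were higher and 2 lower, and 1261 of all genes were higher and 1096 lower. Under every other alternative the counts for the whole family, the partner genes and all genes stayed within 1.5 times those reported, with 17 to 22 TRIM genes higher and 7 or 8 lower. Counts within small role groups moved further. Higher members tied to the cell cycle, vesicles, peroxisomes and stress numbered 3, and 1 with library totals, without siControl replicate 2 or at an adjusted p of 0.01. Lower chromatin members numbered 2, and 1 with the DESeq2 Wald test, without any 1 library or at 0.01. Higher NHL members numbered 1, and 2 without siControl replicate 2 or siHells replicate 2. The lower COS box member, Trim54, was not tested under the stricter count filter. Of the 10 genes of the Trim5/Trim30 run, 9 were called higher with no filter or at 0.01, and 4 against a 1.5-fold change. The cause of these shifts was not tested. Leaving out 1 library gave 18 to 22 higher and 7 or 8 lower. The log2 fold change of Trim17 ranged from -1.44 to 0.25 when 1 library was left out, and was 0.21 with the counts of H2aw added. With the replicate number as a block, 21 TRIM genes were higher and 8 lower, and 4502 and 4586 of all genes. Deviations of same-numbered libraries had a correlation of 0.0344 over 10000 genes. The labels do not say what a replicate number marks. From so few libraries, the correlation cannot show whether same-numbered ones share a culture, an animal or a run. With 2 libraries a group, calls at log2 differences near 0.1, as in Trim25, Trim33 and Trim35, were each lost under at least 1 of these settings.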
